A study of Homo sapiens with 12 samples.

Results

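Ruxolitinib, an inhibitor of the Janus kinases JAK1 and JAK2, was compared with its solvent DMSO in senescent IMR90 cells, a fibroblast line from human fetal lung. The comparison holds 6 of the 12 libraries of the series, 3 per group, chosen by the group named in each column of the deposited table. The other 6 libraries were 3 of untreated, proliferating IMR90 cells and 3 of senescent cells given palbociclib, an inhibitor of CDK4 and CDK6. PolyA RNA was sequenced, and 11242 of the 16383 genes in the table had a mean of at least 10 normalized counts over the 12 libraries and were tested. All cells were labelled wild type. Cells of the 3 senescent groups received 20 Gy of ionizing radiation within 10 minutes and were collected 11 days later. Ruxolitinib was added at 2 µM on days 4, 6, 8 and 10 after irradiation, and palbociclib at 2 µM on the same days. The design holds 1 cell line, 1 dose and 1 time point, and ruxolitinib in proliferating cells was not analysed here. Whether the libraries of a group came from separate cultures is not stated, so p-values measure the spread between these libraries, which may be technical. In bulk libraries, fewer cells of a kind and less RNA per cell cannot be told apart.

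Type I interferons bind a receptor that carries JAK1 and TYK2, which phosphorylate STAT proteins. STAT2 joins IRF9 in a complex that binds the interferon-stimulated response element, whereas interferon gamma and cytokines of the interleukin-6 family act through STAT dimers that bind gamma-activated sites. Senescent fibroblasts are known to express interferon-stimulated genes beside a secretory programme of chemokines, interleukins, proteases and growth factors.

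Recovered reads over the listed genes ran from 14106799 to 16503624 per library with DMSO and from 18713012 to 21750962 with ruxolitinib, so depth did not overlap between the groups. Library numbers ran in blocks (A116 to A118 with DMSO, A122 to A124 with ruxolitinib), so library order and treatment cannot be told apart. Every pair of libraries within either group differed by more than counting noise. The first principal component of the 6 libraries held 55.7% of the variance and separated the treatments. The sum of 12 fibroblast markers ran from 601705 to 608547 normalized counts with DMSO and from 717619 to 725041 with ruxolitinib, a difference carried by collagen genes described further on. Of 10 epithelial markers, 5 were high enough to be tested and none was called, with sums of 1853 to 2106 and 1865 to 2003 normalized counts and KRT5 and NKX2-1 at 0. Of 7 endothelial and 12 immune markers, 3 of each were tested and none was called. Endothelial sums were 2417 to 2568 and 2263 to 2282, immune sums were 1271 to 1339 and 1132 to 1197, and TYROBP was at 0. In chi-square per degree of freedom against counting noise, pairs within the compared groups ran from 1.98 to 2.81. Library A126 stood apart from the other proliferating libraries (11.9 and 17.1, against 2.95 between A125 and A127). All palbociclib pairs were wide, at 25.1 (A119 and A120), 13.6 (A120 and A121) and 6.43 (A119 and A121). The proliferating and palbociclib libraries enter this comparison through the shared estimate of the spread and the level filter.

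Ruxolitinib lowered more genes than it raised. In limma's fit of all 12 libraries, with Benjamini-Hochberg adjustment over all tested genes and a threshold of 0.05, 384 genes were lower with ruxolitinib (3.42% of tested genes) and 124 were higher (1.1%). At least 2-fold changes were 73 decreases (0.649%) and 2 increases (0.0178%), in TNFRSF10D and GNAT2. The 2 groups did not overlap for 3586 genes (31.9%), and the median log2 fold change of all tested genes was close to 0. Fold changes here are differences of log2(normalized count + 1), which understate the change of low genes. Without libraries A119, A120 and A126 the counts were 924 lower (8.22%) and 742 higher (6.6%), and in a fit of the 6 libraries alone 998 lower (8.88%) and 843 higher (7.5%). With every library's reads drawn down to the smallest library, 339 were lower (3.02%) and 109 higher (0.97%). Leaving out any 1 of the 6 compared libraries gave 220 to 251 lower and 38 to 61 higher.

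The decreases fell into a steep interferon-related part and a broader, shallow remainder. Of the 384 lower genes, 119 (31.0%) were on 6 lists of interferon response and JAK-STAT pathway genes, with a median log2 fold change of -1.02, and 265 (69.0%) were on none of them, with a median of -0.38. Of all 11242 tested genes, 231 (2.05%) were on those lists. Among the 73 genes lower at least 2-fold, 63 were on those lists. The 10 others were AGT, DES, TYMP, FRG1, SLCO2A1, IL1RL1, REC8, IL24, SLC15A3 and PLEKHA4. The lists do not hold every interferon-inducible gene: TYMP and SLC15A3 are known ones that they leave out. Genes outside the lists are therefore not shown to be independent of interferon. Among the 124 higher genes, 1 was on those lists, the interferon receptor chain IFNAR1. The level filter used all 12 libraries, so a gene high only with DMSO could pass it through that group, and counts over tested members are descriptions.

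**Figure D1:**
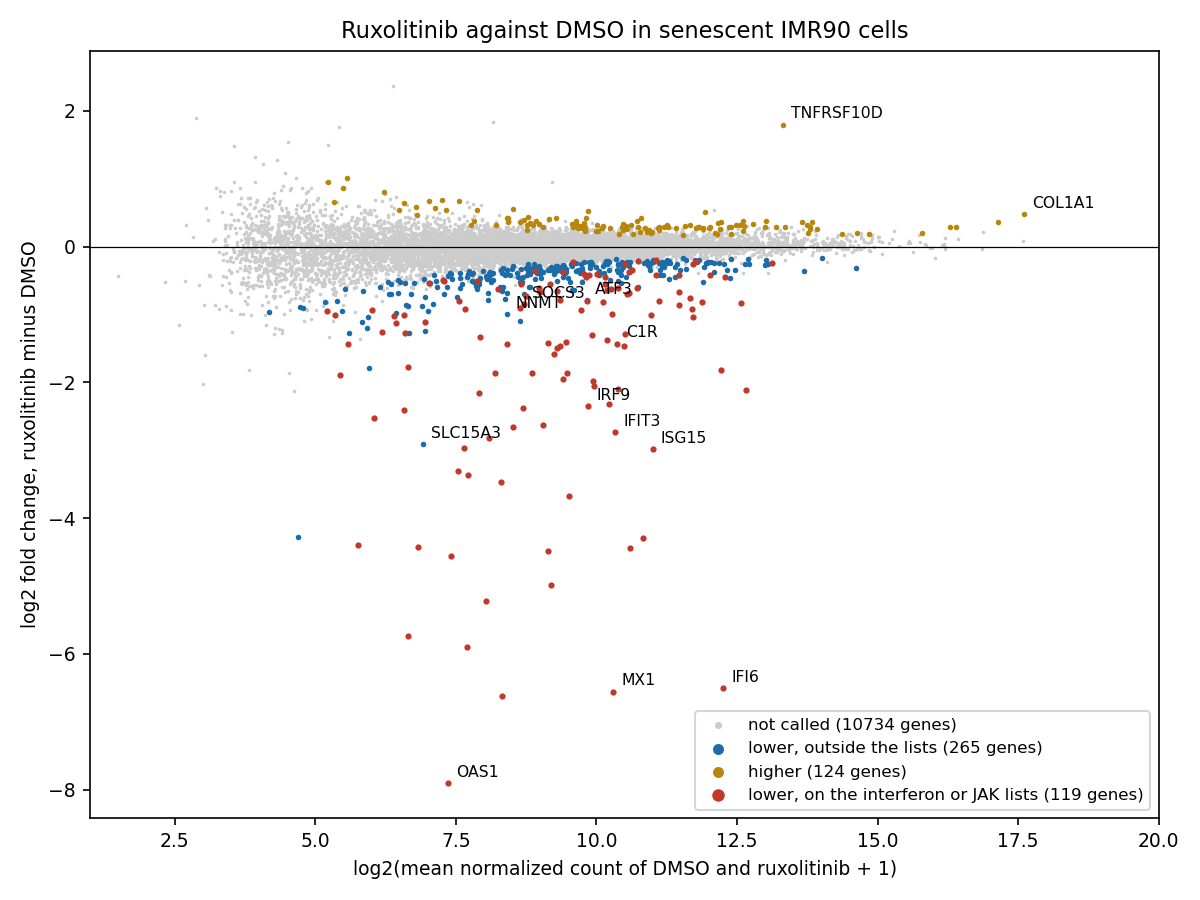
Log2 fold change of each tested gene (ruxolitinib minus DMSO) against log2 of its mean normalized count plus 1 over both groups. Red points, the 119 lower genes on the interferon and JAK lists, reach down to -7.90 for OAS1, whereas most of the 265 other lower genes (blue) lie close to 0 and TNFRSF10D stands alone among the 124 higher genes (ochre).

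RNA of the kinases that ruxolitinib acts on did not pass the test. JAK1 held 4402, 4740 and 4835 normalized counts in the 3 DMSO libraries and 4695, 4503 and 4800 with ruxolitinib (log2 fold change 0.00, SE 0.07, adjusted p 0.992). JAK2 held 398, 402 and 394 with DMSO and 401, 413 and 355 with ruxolitinib (log2 fold change -0.03, SE 0.14, adjusted p 0.95). In both genes the groups overlapped. TYK2, the partner kinase at the interferon receptor, was at 1184 ± 30.4 and 1264 ± 25.8 (SD, n = 3; adjusted p 0.484). JAK3, a kinase known mainly from lymphocytes, was low and fell from 48 ± 6.77 with DMSO to 24.1 ± 1.17 (log2 fold change -0.96, SE 0.18, adjusted p 0.00543).

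STAT2 and IRF9, subunits of the transcription factor that type I interferon activates, fell. IRF9 (Entrez gene 10379), the DNA-binding subunit, held 1570, 1560 and 1517 normalized counts with DMSO and 302, 303 and 301 with ruxolitinib (log2 fold change -2.36, SE 0.09, adjusted p 1.15e-10). Every ruxolitinib library lay under every DMSO library, and the level ended a little under the proliferating level of 355 ± 33.4 (log2 difference -0.23, adjusted p 0.0351), a call lost with library totals set equal (adjusted p 0.816). STAT2 fell less, from 3485 ± 200.4 with DMSO to 2198 ± 46.5 (log2 fold change -0.66, SE 0.08, adjusted p 5.27e-05). It stayed above the proliferating level of 1259 ± 131 (log2 difference 0.81, adjusted p 1.52e-07). Of the 24 tested genes of the JAK-STAT core list, 8 were lower (33.3%, against 3.42% of all tested genes). In that list 1 was higher (4.17%, against 1.1%) and 15 were not called, with a median of -0.14. STAT3, STAT6, the oncostatin M receptor OSMR and the interleukin-4 receptor IL4R made small decreases of -0.26, -0.20, -0.45 and -0.22. IFNAR1 rose from 2012 ± 52.9 with DMSO to 2387 ± 125 (log2 fold change 0.25, SE 0.06, adjusted p 0.0188). The calls of STAT3, STAT6, IL4R and IFNAR1 were each lost when some single libraries were left out, with adjusted p up to 0.0731, 0.163, 0.18 and 0.119.

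Feedback inhibitors of the pathway split. USP18, which blocks signalling at the type I interferon receptor and removes ISG15 from proteins, held 501, 470.0 and 453 normalized counts with DMSO and 65.6, 99.9 and 44.2 with ruxolitinib (log2 fold change -2.82, SE 0.21, adjusted p 2.15e-07). The libraries did not overlap, and the ruxolitinib level did not differ from the proliferating one by the same test (log2 difference -0.15, adjusted p 0.538). SOCS3 (Entrez gene 9021, chr17:78356778-78360925 in GRCh38.p14), which is induced by STAT3 and inhibits JAK1, JAK2 and gp130 signalling, held 491, 547 and 577 with DMSO and 317, 299 and 279 with ruxolitinib (log2 fold change -0.85, SE 0.10, adjusted p 3.19e-05). Its ruxolitinib libraries lay under all DMSO libraries and under the proliferating ones at 594, 654 and 633 (log2 difference -1.07, adjusted p 5.99e-08). SOCS1, the feedback inhibitor of interferon gamma signalling, was low in both groups at 41.6, 59.2 and 46.3 and 53.2, 50.4 and 50.5, and the groups overlapped (log2 fold change 0.08, SE 0.18, adjusted p 0.886). USP18 and SOCS3 were the only decreases called among the tested feedback genes, 2 of 15 (13.3%, against 3.42% of all tested genes). The median was -0.00 and no member was higher.

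**Figure D2:**
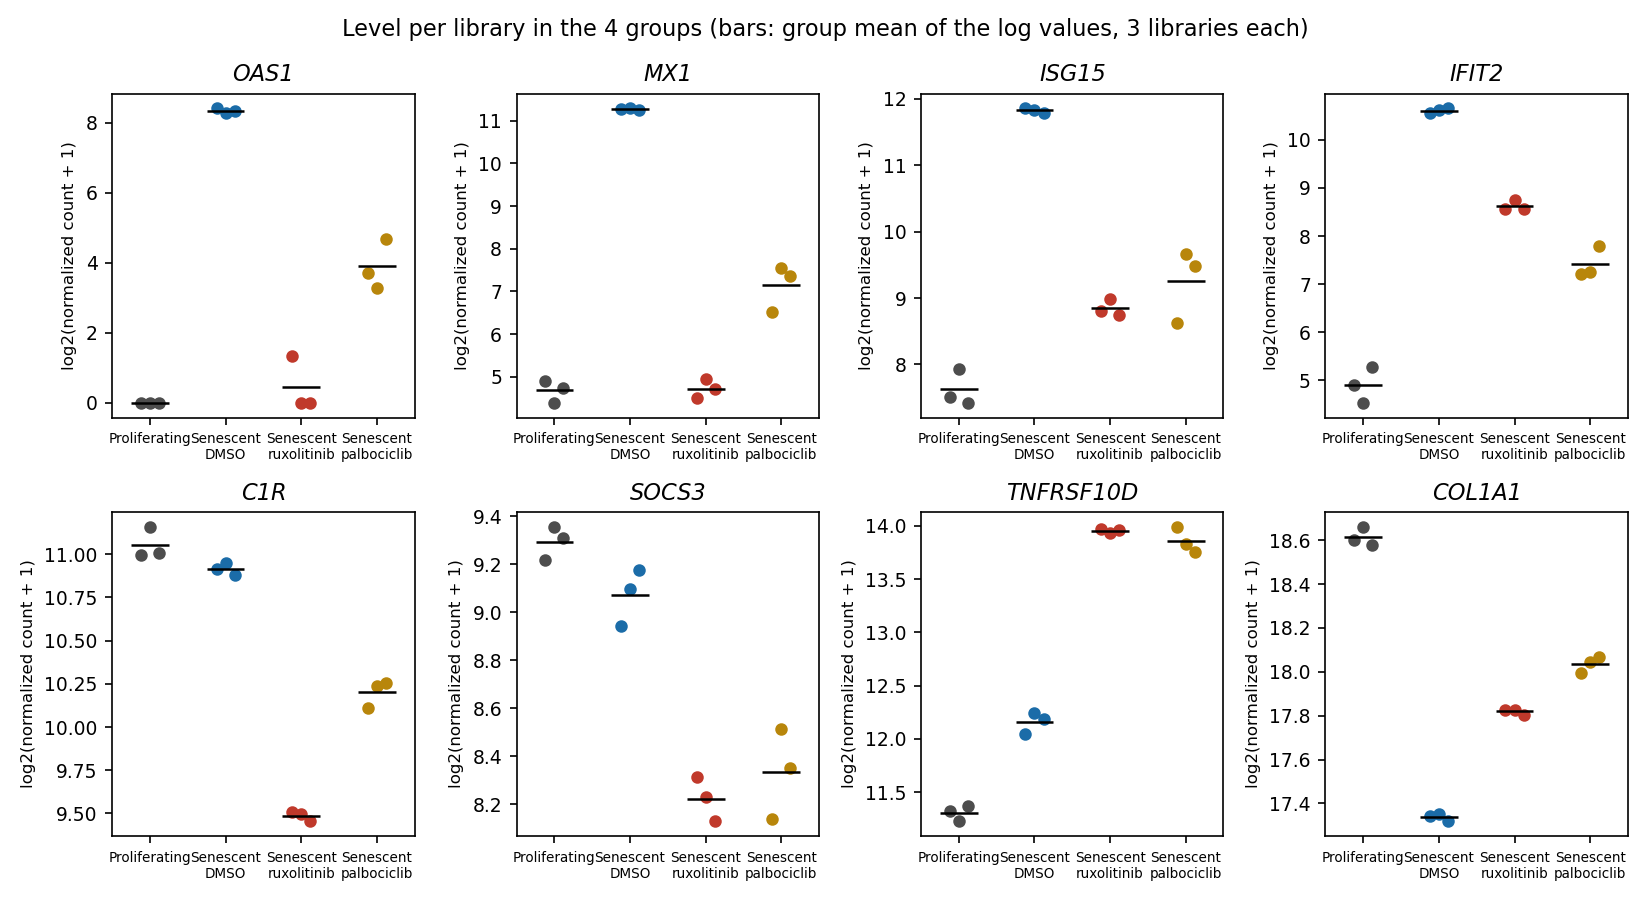
Log2(normalized count + 1) in each of the 12 libraries for 8 genes, one panel each, with points for libraries and bars for the mean of the 3 log values of a group. OAS1 and MX1 drop with ruxolitinib to near the proliferating level, IFIT2 stays well above it, C1R and SOCS3 end under it, and TNFRSF10D is high with either inhibitor.

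Antiviral effectors carried the largest decreases. Of 106 listed genes, 103 were in the table and 97 were tested. Of the tested genes, 80 were lower (82.5%, against 3.42% of all tested genes), none was higher and 17 were not called. The median log2 fold change was -1.12, with 53 decreases of at least 2-fold. The groups did not overlap for 91 of the 97, and for 31.9% of all tested genes. OAS1 (4938, chr12:112906962-112933219), which makes the second messenger that activates RNase L, held 341, 311 and 324 normalized counts with DMSO and 1.54, 0 and 0 with ruxolitinib (log2 fold change -7.90, SE 0.46, adjusted p 8.25e-09). Since no ruxolitinib library held more than 3 reads of it, DMSO cells were at least 126-fold higher, counted against a floor of 3 reads in each library. The proliferating libraries were all at 0. OAS2 (4939) held 589, 643 and 657 and 4.63, 9 and 3.61 (log2 fold change -6.63, SE 0.38, adjusted p 8.69e-09), and OAS3 (4940) held 1101, 1122 and 1162 and 40.1, 25.2 and 40.6 (log2 fold change -4.99, SE 0.27, adjusted p 3.85e-09). The OAS genes are related in sequence, and how reads that match several of them were counted is not given in the sources used here.

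MX1 (4599, chr21:41420558-41459214), a GTPase that traps viral nucleocapsids, held 2495, 2507 and 2428 normalized counts with DMSO and 21.6, 29.7 and 25.3 with ruxolitinib, 97-fold less (log2 fold change -6.56, SE 0.21, adjusted p 1.72e-11). Its ruxolitinib libraries overlapped the proliferating ones, at 29.1, 20 and 25.7. Its relative MX2 fell from 328 ± 11.2 with DMSO to 13.2 ± 3.15 (log2 fold change -4.56, SE 0.23, adjusted p 1.25e-09). IFI6, which protects the endoplasmic reticulum from viral remodelling and inhibits apoptosis, held 10410, 9241 and 9204 with DMSO and 94.9, 117 and 103 with ruxolitinib (log2 fold change -6.51, SE 0.24, adjusted p 4.82e-11). All its ruxolitinib libraries were close to the proliferating ones at 91.3, 102 and 89.5. BST2, the tetherin that holds budding virions at the cell surface, fell from 195 ± 9.31 with DMSO to 2.79 ± 1.03 (log2 fold change -5.73, SE 0.42, adjusted p 1.64e-07). IFI44L, XAF1, HERC6 and IFITM1 fell, with log2 fold changes of -5.89, -5.22, -4.48 and -4.44. RSAD2, which makes the chain-terminating nucleotide ddhCTP, held 225, 214 and 207 and 10, 8.1 and 9.02 (log2 fold change -4.43, SE 0.72, adjusted p 0.00139). It was listed at 0 in all proliferating libraries, and its call was lost with a pseudocount of 0.1 (adjusted p 0.0718). IFITM1 belongs to a family of near copies and carries the same doubt as the OAS genes.

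Other effectors fell by less and kept a measurable level. ISG15, a ubiquitin-like modifier, held 3712, 3659 and 3516 with DMSO and 447, 505 and 426 with ruxolitinib (log2 fold change -2.98, SE 0.20, adjusted p 3.73e-08). IFIT1, which binds viral RNA lacking cap methylation, held 3422, 3578 and 3360 and 184, 171 and 171 (log2 fold change -4.29, SE 0.19, adjusted p 4.16e-10). IFIT2 held 1504, 1566 and 1614 and 377, 430.4 and 379 (log2 fold change -1.98, SE 0.17, adjusted p 9.50e-07). In these genes every ruxolitinib library lay under every DMSO library. IFIT3 fell from 2245 ± 108 to 338 ± 20, IFI44 from 578 ± 59.1 to 51.5 ± 6.32 and CMPK2 from 103 ± 7.55 to 3.95 ± 0.591. PARP9, a regulator of interferon signalling with DTX3L, fell from 1354 ± 15.6 with DMSO to 105 ± 10.1 (log2 fold change -3.68, SE 0.11, adjusted p 6.65e-12). The double-stranded RNA kinase EIF2AK2 (-1.29), the RNA editor ADAR (-0.83) and the lipoprotein APOL6 (-1.86) also fell. HERC5, the ligase for ISG15 (-1.28), OASL (-1.12), the lysosomal thiol reductase IFI30 (-1.12) and TRIM22 (-0.38) were lower as well. HERC5 and OASL lost their calls without single libraries of the compared groups and at a pseudocount of 0.1 (adjusted p up to 0.211 and 0.141). Among the 17 members not called, LY6E held 19.8, 29.6 and 12.7 with DMSO and 2.31, 4.5 and 9.93 with ruxolitinib (log2 fold change -1.82, SE 0.55, adjusted p 0.0824), and it passed the test in the fit of the 6 libraries alone.

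**Figure D3:**
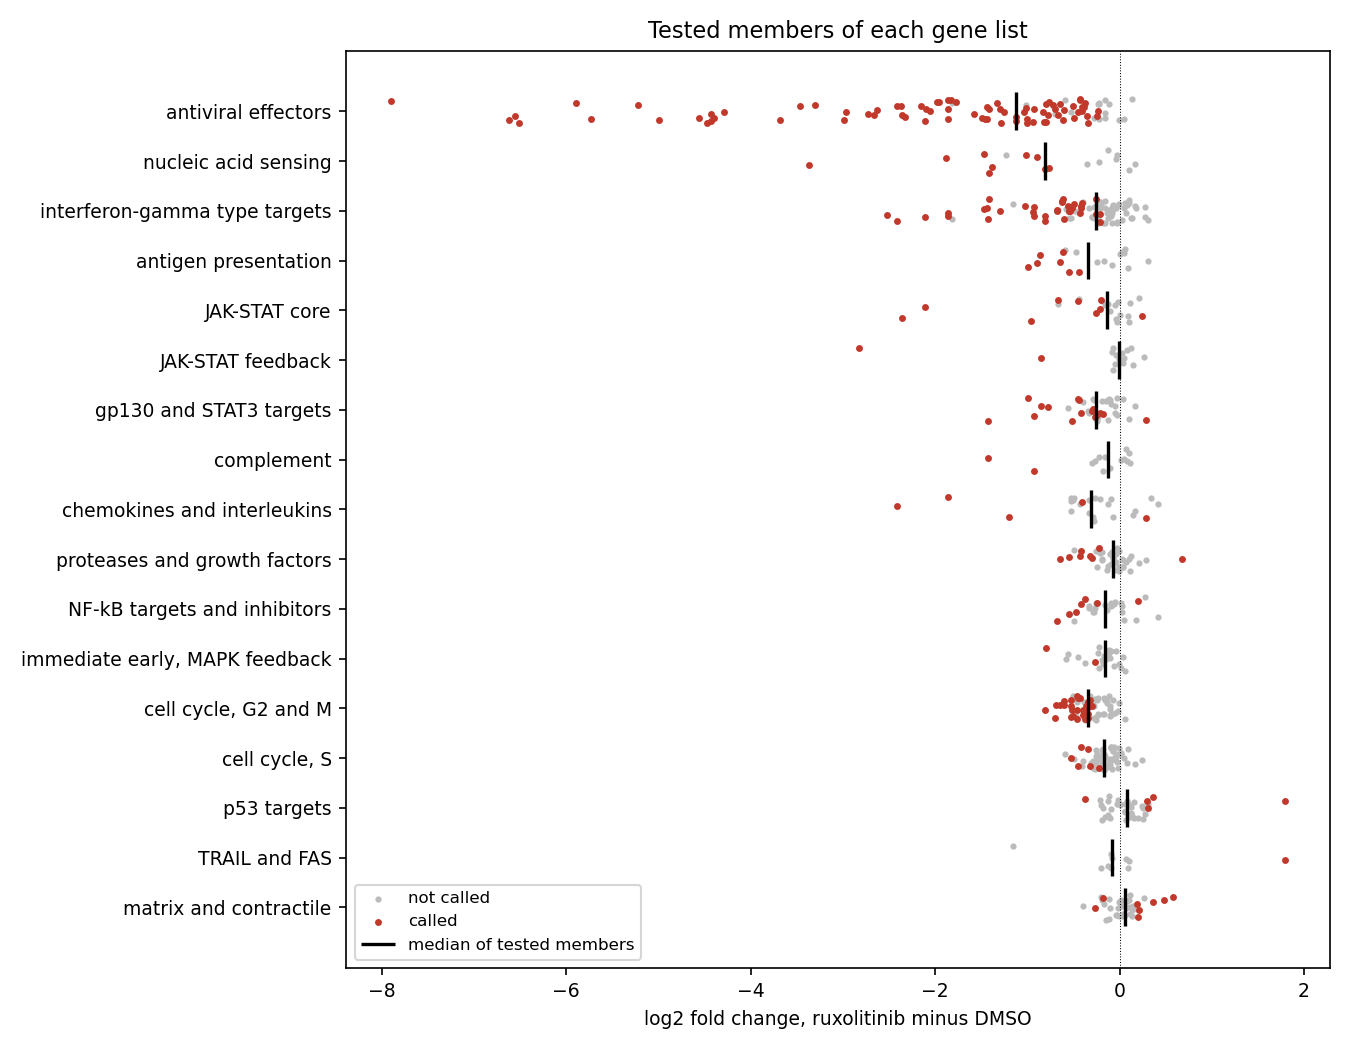
Log2 fold change (ruxolitinib minus DMSO) of every tested member of 17 gene lists, with called members in red, others in grey and a black bar at each list's median. The antiviral list has its median at -1.12 and no called member above 0, the median of the G2 and M phase list is -0.35 without any 2-fold change, and the p53 and matrix lists are centred near 0 at 0.08 and 0.06.

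Promoter sequence was read to show which of these genes carry the letters of the 2 binding sites named above. RefSeq start regions (GRCh38.p14) run from 250 bases before to 50 after each start, and only letters before the start are printed. The letters GAAA, any 2 bases and GAAA again were searched on both strands for the interferon-stimulated response element, and TTCNNNGAA, which reads alike on both strands, for the gamma-activated site. The first motif was in 3.57% of all 35116 start regions, in 2.91% of the 13654 regions of tested genes and in 43.0% of the 128 regions of lower genes on the interferon and JAK lists. It was in 9.66% of the 145 regions of list members that were not called, in 2.81% of the 320 regions of lower genes outside the lists and in 0.658% of the 152 regions of higher genes. The second motif was in 7.66% of all regions, 6.42% of those of tested genes, 18.8% of those of lower list genes, 12.4% of those of list members not called, 7.19% of those of lower genes outside the lists and 4.61% of those of higher genes. The motifs overlap in places, as in the BST2 region, and a match is a description of letters and not a shown binding site. Only genes with a match before the start are shown. OAS1, the steepest decrease, had no match to the first motif there but held the second, and no start region was available for OAS2. Matches read as GAAA repeats or, on the other strand, TTTC repeats. For some genes with steep decreases, the windows around the first motif were as follows, with the match in capitals.
ISG15: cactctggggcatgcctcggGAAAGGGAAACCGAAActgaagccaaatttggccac
IFIT1: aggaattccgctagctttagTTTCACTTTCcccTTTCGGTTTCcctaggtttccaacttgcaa
IFI6: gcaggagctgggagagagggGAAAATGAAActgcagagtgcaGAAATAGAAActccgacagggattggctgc
BST2: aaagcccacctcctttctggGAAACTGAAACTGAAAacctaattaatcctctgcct
OAS3: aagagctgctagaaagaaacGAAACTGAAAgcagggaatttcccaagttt
The windows lie at chr1:1013364-1013419 (plus strand), chr10:89392487-89392549 (plus strand), chr1:27672256-27672327 (minus strand), chr19:17405725-17405780 (minus strand) and chr12:112938311-112938360 (plus strand), and are written 5′ to 3′ on the strand of the gene. In ISG15 and BST2 the capitals hold 2 overlapping matches, and in IFIT1 and IFI6 2 separate ones. The second motif is shown, in capitals, for lower genes of other roles, namely the transcription factors IRF1 and IRF9, the complement protease C1R, the angiotensin precursor AGT and the repressor BCL6.
IRF1: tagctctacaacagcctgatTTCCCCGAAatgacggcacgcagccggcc
IRF9: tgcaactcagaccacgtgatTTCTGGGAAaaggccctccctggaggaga
C1R: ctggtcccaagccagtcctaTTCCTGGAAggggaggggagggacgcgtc
AGT: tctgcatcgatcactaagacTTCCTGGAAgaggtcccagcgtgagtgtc
BCL6: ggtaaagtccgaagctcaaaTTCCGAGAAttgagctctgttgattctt
These windows lie at chr5:132490869-132490917 (minus strand), chr14:24161182-24161230 (plus strand), chr12:7091951-7091999 (minus strand), chr1:230714264-230714312 (minus strand) and chr3:187745469-187745516 (minus strand).

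Placed beside proliferating cells, antiviral effectors with ruxolitinib lay on both sides of the proliferating level, in shares close to those of all tested genes. In the comparison of ruxolitinib-treated senescent with proliferating cells, 4443 of all tested genes were lower (39.5%) and 3670 higher (32.6%). Among the 97 antiviral effectors, 36 were lower (37.1%), 37 were higher (38.1%) and 24 were not called, with a median of 0.00. The balance rests on the scaling. With library totals set equal, 3136 of all genes were lower and 5050 higher, the median of all genes moved from -0.06 to 0.15, and 24 antiviral effectors were lower and 45 higher. At the same upper quartile 3304 were lower and 4829 higher, and under quantile normalization 3718 and 4249, with 25 and 34 antiviral effectors lower and 43 and 35 higher. This comparison shares its ruxolitinib libraries with the one above, so only each one's own values are given. Some members ended under the proliferating level. OAS3 was at 35.3 ± 8.75 against 286 ± 69.9 (log2 difference -2.98, adjusted p 7.71e-08), and XAF1, PARP9 and IFITM1 differed by -1.76, -1.55 and -1.43. Others stayed far above it. The chemokines CXCL10 and CXCL11, ligands of CXCR3, were at 126 ± 12.5 against 6.94 ± 1.91 (log2 difference 4.02, adjusted p 1.73e-11) and 29.3 ± 5.33 against 0.739 ± 1.28 (log2 difference 4.34, adjusted p 4.93e-07). IFIT2 was at 396 ± 30.2 against 29.8 ± 7.98 (log2 difference 3.72, adjusted p 1.73e-11). OASL, IFI30, HERC5 and TRIM22 were higher by 4.21, 3.31, 2.78 and 1.91. MX1 (log2 difference 0.04, adjusted p 0.88) and IFI6 (log2 difference 0.15, adjusted p 0.578) did not differ from the proliferating level by this test, although MX1 was under it with quantile normalization (log2 difference -0.54, adjusted p 0.0308).

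**Figure D4:**
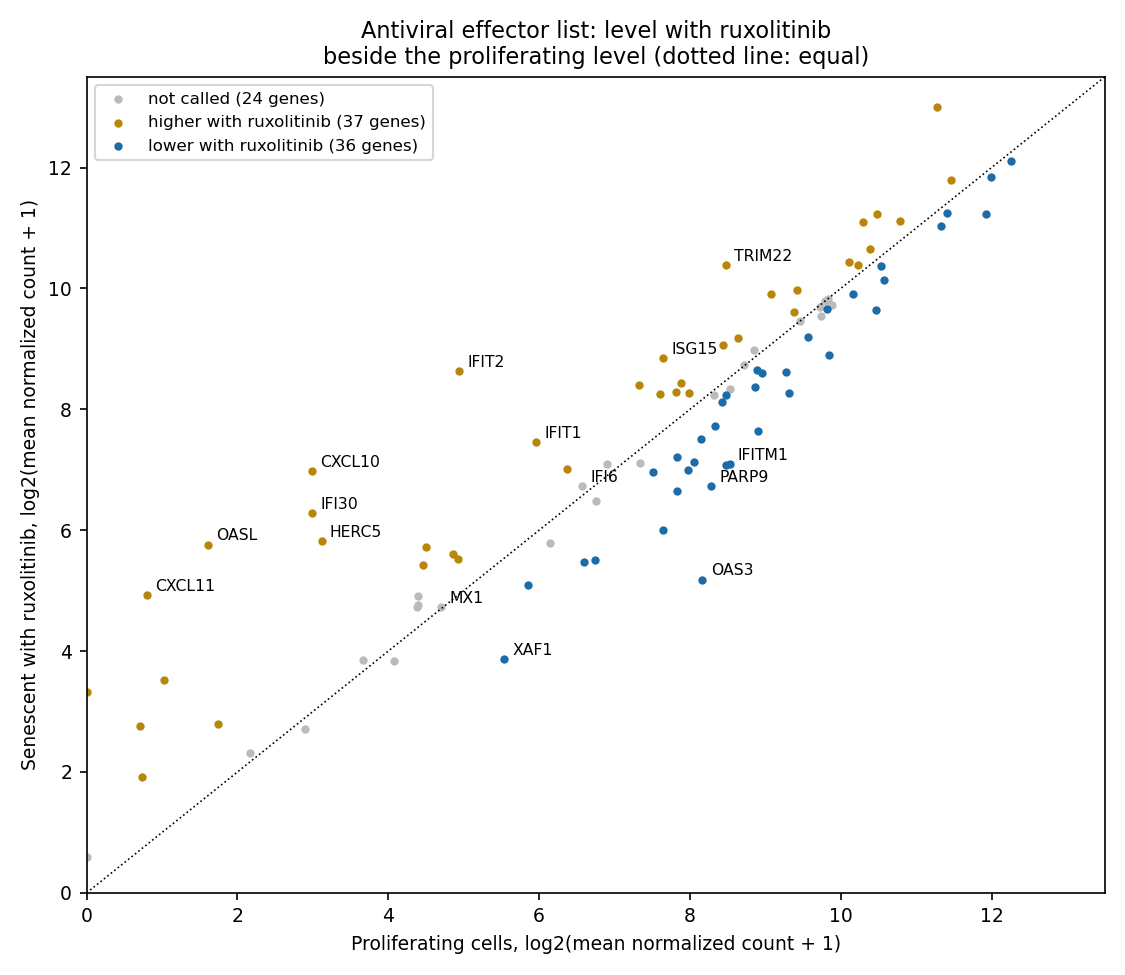
Mean level of each of the 97 tested antiviral effectors in senescent cells with ruxolitinib (vertical) against proliferating cells (horizontal), both as log2(mean normalized count + 1), with a dotted line where they are equal. The 37 higher genes (ochre), led by CXCL11, OASL and CXCL10, lie above the line, the 36 lower genes (blue), led by OAS3, lie below it, and MX1 and IFI6 lie on it.

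The other inhibitor group gave a further reference level. Against palbociclib, 2561 of all tested genes were lower with ruxolitinib (22.8%) and 1983 higher (17.6%). Of the antiviral effectors, 42 were lower with ruxolitinib than with palbociclib (43.3%), 23 higher (23.7%) and 32 not called. The log2 differences, ruxolitinib minus palbociclib, were -3.45 for OAS1, -2.92 for IFI6 and -2.42 for MX1. MX1 held 90.7, 185 and 164 normalized counts in the 3 palbociclib libraries, all above the ruxolitinib ones. OASL and HERC5 were higher with ruxolitinib, by 2.74 and 2.78. With library totals set equal, the counts over all genes turned to 847 lower and 4535 higher, and those of the antiviral effectors to 22 lower and 31 higher, so the balance of this comparison too rests on the scaling.

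Cytosolic sensors of RNA that are themselves interferon-induced fell, and the shared adaptor MAVS and its target IRF3 were not called. IFIH1, which encodes the sensor MDA5, held 380.1, 393 and 379 normalized counts with DMSO and 44, 30.6 and 35.2 with ruxolitinib (log2 fold change -3.37, SE 0.15, adjusted p 5.54e-10). RIGI, the sensor of triphosphorylated RNA, held 2031, 2227 and 2064 and 760.0, 772 and 752 (log2 fold change -1.47, SE 0.07, adjusted p 4.82e-10). In both genes the libraries of the groups did not overlap. DHX58, the DNA sensor IFI16 and the nucleotide hydrolase SAMHD1 fell, with log2 fold changes of -1.89, -1.38 and -1.41. The signalling ligase TRIM25 and adaptor MYD88 fell by 1.01 and 0.81. Another DNA sensor, CGAS, was not called, at 89.9 ± 9.56 with DMSO and 70.8 ± 11.4 with ruxolitinib (log2 fold change -0.35, SE 0.15, adjusted p 0.261). The adaptor MAVS was at 2541 ± 41.1 and 2851 ± 109 (adjusted p 0.0771), and it was called higher in the fit of the 6 libraries alone. The transcription factor IRF3 was at 535 ± 44 and 573 ± 10.6 (adjusted p 0.694). Of the 17 sensing genes tested, 9 were lower (52.9%, against 3.42% of all tested genes) and none was higher, with a median of -0.81. IRF7, the interferon-induced regulator of interferon genes, was under the level filter with 17.8, 10.7 and 25.4 normalized counts with DMSO and 0.772, 2.7 and 0.902 with ruxolitinib. IFNB1, the interferon beta gene, was at 2.97, 3.55 and 3.47 and 1.54, 2.7 and 0, too low to compare.

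Antigen presentation genes moved by less than 2-fold. HLA-B held 1826, 1582 and 1517 normalized counts with DMSO and 1037, 719 and 752 with ruxolitinib (log2 fold change -0.99, SE 0.14, adjusted p 0.000459). B2M, the invariant chain of class I molecules, held 4219, 3364 and 3394 and 1984, 1989 and 2019 (log2 fold change -0.86, SE 0.08, adjusted p 5.51e-06). Neither gene's groups overlapped. The class I transactivator NLRC5 fell from 516 ± 20.8 with DMSO to 277 ± 6.02 (log2 fold change -0.90, SE 0.07, adjusted p 5.87e-07). The peptide-trimming ERAP2 and ERAP1 and the proteasome activators PSME2 and PSME1 fell by 0.65, 0.44, 0.62 and 0.55. These were the 7 members called lower of 18 tested (38.9%, against 3.42% of all tested genes), with a median of -0.34 and none higher. The call of ERAP1 was lost without library A118 or A123. HLA-C, TAP1, PSMB8 and PSMB9 were listed at or near 0 in all 12 libraries of the table and could not be assessed. HLA genes are near copies of one another, so HLA-B is uncertain.

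Targets typical of interferon gamma fell unevenly. Of 93 tested members, 36 were lower (38.7%, against 3.42% of all tested genes), none was higher and 57 were not called. The median was -0.26, with 11 decreases of at least 2-fold. GBP1, a GTPase that attacks membranes of intracellular pathogens, held 1290, 1435 and 1403 normalized counts with DMSO and 558, 572 and 546 with ruxolitinib (log2 fold change -1.30, SE 0.07, adjusted p 1.41e-09). IRF1, a transcription factor induced by interferon gamma, held 644, 601 and 583 and 414, 396 and 389.8 (log2 fold change -0.61, SE 0.09, adjusted p 0.00097). The groups did not overlap in either gene. CXCL10 held 399, 491 and 488 and 114, 123 and 139 (log2 fold change -1.86, SE 0.18, adjusted p 5.50e-06), and CXCL11 held 166, 148 and 162 and 24.7, 35.1 and 28 (log2 fold change -2.41, SE 0.46, adjusted p 0.00589), a call lost at a pseudocount of 0.1 (adjusted p 0.173). BATF2, a transcription factor of interferon-activated macrophages, fell from 111 ± 10.8 with DMSO to 19.5 ± 7.85 (log2 fold change -2.53, SE 0.34, adjusted p 0.000231). CD274, which encodes the checkpoint ligand PD-L1, fell from 689 ± 31.2 with DMSO to 468 ± 24.2 (log2 fold change -0.56, SE 0.10, adjusted p 0.00467). It stood under the proliferating level of 1335 ± 153. The adhesion molecule ICAM1, the inflammatory caspase CASP1, the cytosolic antibody receptor TRIM21 and the secreted SECTM1 changed by -0.42, -0.92, -1.44 and -1.02.

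Genes known to respond to gp130 cytokines through STAT3 shifted by small amounts. Of 39 tested members, 15 were lower (38.5%, against 3.42% of all tested genes) and 1 was higher (2.56%, against 1.1%). The other 23 were not called, and the median was -0.25. This list overlaps the others. C1R, C1S, PIM1 and ICAM1 are also on the interferon gamma list, and SOCS3, STAT3, OSMR and IL4R on the JAK-STAT lists. Its decreases are therefore not a part separate from those above. The largest decreases of the list were in C1R and C1S, the serine proteases of the first complement component, and in NNMT. C1R held 1926, 1978 and 1887 normalized counts with DMSO and 728, 721 and 700.2 with ruxolitinib (log2 fold change -1.43, SE 0.06, adjusted p 2.02e-10). C1S held 4472, 4422 and 4225 and 2288, 2319 and 2306 (log2 fold change -0.92, SE 0.05, adjusted p 8.69e-09). Every ruxolitinib library lay under every DMSO library, and C1R ended under its proliferating level of 2128 ± 137 whereas C1S did not differ from its own by the test (log2 difference -0.01, adjusted p 0.882) and was above it with library totals set equal (log2 difference 0.19, adjusted p 0.00725). C1R and C1S were the only 2 of 14 tested complement genes to be called (14.3%, against 3.42% of all tested genes lower). The C1 inhibitor SERPING1 was at 998 ± 20.4 and 880.0 ± 21.7 (adjusted p 0.175). The methyltransferase NNMT held 463, 416 and 482 and 222, 219 and 240.0 (log2 fold change -0.99, SE 0.11, adjusted p 2.49e-05). The transcription factor CEBPD held 367, 418 and 476 and 245, 235 and 251 (log2 fold change -0.78, SE 0.14, adjusted p 0.00422). Both fell without overlap. The kinase PIM1, the repressor BCL6, the growth factor VEGFA and the interleukin-1 receptor IL1R1 fell by 0.51, 0.44, 0.29 and 0.28, the last a call lost without some single libraries. MYC was at 719 ± 45.2 and 629 ± 49.3 (adjusted p 0.217) and BCL3 at 283 ± 30.4 and 231 ± 11.4 (adjusted p 0.147). Both were called lower in the fit of the 6 libraries alone, where 25 members of the list were lower. LIF, itself a gp130 ligand, rose from 2125 ± 197 with DMSO to 2591 ± 126 (log2 fold change 0.29, SE 0.08, adjusted p 0.0414), a call lost without single libraries of either group (adjusted p up to 0.195).

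The chemokines and interleukins that mark the senescent secretory programme mostly did not pass the test. CXCL8, the neutrophil chemokine, held 1564, 1674 and 1835 normalized counts with DMSO and 1581, 1461 and 1713 with ruxolitinib (log2 fold change -0.09, SE 0.11, adjusted p 0.759). CXCL1 held 119, 156 and 134 and 108, 95.4 and 134 (log2 fold change -0.28, SE 0.51, adjusted p 0.86). IL6 held 557, 623 and 661 and 512, 435 and 516 (log2 fold change -0.33, SE 0.13, adjusted p 0.191). CXCL8 and CXCL1 overlapped between the groups, and IL6 did not and was called lower in the fit of the 6 libraries alone. IL1A was at 62.6 ± 4.75 and 46.9 ± 9.19, IL1B at 86.8 ± 11.7 and 116 ± 10.3 and CCL2 at 974 ± 109.5 and 1098 ± 156, with adjusted p of 0.715, 0.693 and 0.539. All 6 genes stood above the proliferating level with ruxolitinib, CXCL8 by 4.45 and IL6 by 1.69. Of 24 tested members of the list, 4 were lower (16.7%, against 3.42% of all tested genes). In that list 1, LIF, was higher (4.17%, against 1.1%), and the median was -0.31. The decreases were CXCL10 and CXCL11, the growth factor of macrophages CSF1 (log2 fold change -0.41, SE 0.06, adjusted p 0.000503) and the STAT3-activating cytokine IL24 (log2 fold change -1.19, SE 0.29, adjusted p 0.0285). IL24 held 91.1, 81.7 and 76.3 and 37.8, 37.8 and 31.6, and its call was lost without any 1 of the 6 compared libraries (adjusted p up to 0.125). IL1RL1, the interleukin-33 receptor ST2, held 53.5, 74.6 and 74 and 29.3, 19.8 and 33.4 (log2 fold change -1.28, SE 0.30, adjusted p 0.0221), a call lost without A117, A118, A122 or A123.

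Most secreted proteases and growth factors did not pass the test, although the share called lower was above that of all tested genes. Of 46 tested members, 7 were lower (15.2%, against 3.42% of all tested genes) and 1 was higher (2.17%, against 1.1%). The other 38 were not called, and the median was -0.07. BMP2, a ligand of the TGF-beta family, held 911, 944 and 905 normalized counts with DMSO and 624, 556 and 587 with ruxolitinib (log2 fold change -0.64, SE 0.09, adjusted p 0.000559). VEGFC, the lymphatic growth factor, held 2664, 2800 and 2579 and 1953, 1971 and 2058 (log2 fold change -0.43, SE 0.05, adjusted p 6.08e-05). IGFBP3, the main carrier of insulin-like growth factors, held 27146, 29143 and 26933 and 21807, 22449 and 22407 (log2 fold change -0.32, SE 0.05, adjusted p 0.000701). None of these groups overlapped. INHBA and PTGS2, which encodes cyclooxygenase-2, fell by 0.22 and 0.55, calls lost without each of the 6 compared libraries in turn. The collagenase MMP1 was at 6556 ± 153 and 5539 ± 108 (adjusted p 0.0529), and was called lower by edgeR and DESeq2. The stromelysin MMP3 (adjusted p 0.812) and the stress cytokine GDF15 (4447 ± 78.9 and 4146 ± 283, adjusted p 0.655) were not called. Among 27 tested NF-kB targets and inhibitors, 6 were lower (22.2%, against 3.42% of all tested genes). In that list 1, the inhibitor TNIP1, was higher by 0.20 (3.70%, against 1.1%). The TNIP1 call was lost without some single libraries. The deubiquitinase TNFAIP3 held 647, 550.5 and 679 and 418, 344 and 411 (log2 fold change -0.68, SE 0.11, adjusted p 0.00103), without overlap. The 6 fell to 2 or 3 when any 1 compared library was left out. Of 24 immediate early and MAPK feedback genes, 2 were lower (8.33%, against 3.42% of all tested genes), the stress transcription factor ATF3 and KLF6. ATF3 held 1150, 1138 and 1169 and 627, 688 and 680.4 (log2 fold change -0.79, SE 0.08, adjusted p 4.23e-06) and stayed above its proliferating level of 95.4 ± 7.27.

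TNFRSF10D (8793), which encodes the decoy receptor DcR2 that binds the death ligand TRAIL without a complete death domain, showed the largest increase. It held 4233, 4838 and 4670 normalized counts with DMSO and 16073, 15610 and 15933 with ruxolitinib, 3.47-fold more (log2 fold change 1.79, SE 0.06, adjusted p 4.82e-11). All ruxolitinib libraries lay above all DMSO libraries and above the proliferating ones at 2563, 2393 and 2640. The palbociclib libraries held 16296, 14524 and 13867, a level that did not differ from ruxolitinib by the same test (log2 difference 0.09, adjusted p 0.257, SE 0.06). With library totals set equal TNFRSF10D was higher with ruxolitinib than with palbociclib (log2 difference 0.30, adjusted p 0.000853), as under quantile normalization (0.38). No other receptor of the family was called in the fit of all 12 libraries. TNFRSF10A was at 233 ± 13.6 and 213 ± 14.3, TNFRSF10B at 6078 ± 33.2 and 6468 ± 132, and the other decoy TNFRSF10C at 281 ± 28.4 and 243 ± 10.6, with adjusted p of 0.687, 0.4 and 0.641. TNFRSF10B was called higher in the fits of the 6 libraries alone by limma and edgeR. The ligand TNFSF10 was low, at 21.8, 24.9 and 22 with DMSO and 13.1, 6.3 and 10.8 with ruxolitinib (log2 fold change -1.16, SE 0.37, adjusted p 0.102), and it was called lower in 7 of 26 other settings, among them edgeR and the fit of the 6 libraries alone. FAS was at 2105 ± 27.9 and 1975 ± 64.7 and the caspase-8 inhibitor CFLAR at 2004 ± 32.6 and 1879 ± 16.7, neither called. Of 10 tested TRAIL and FAS genes, TNFRSF10D was the 1 called in the fit of all 12 libraries.

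TNFRSF10D is also on the list of p53 targets. Of 40 tested, 4 were higher (10%, against 1.1% of all tested genes) and 1 was lower (2.5%, against 3.42%). The other 35 were not called, and the median was 0.08. The RNA-binding ZMAT3 held 4151, 4027 and 4256 normalized counts with DMSO and 5446, 5208 and 5290 with ruxolitinib (log2 fold change 0.36, SE 0.07, adjusted p 0.00504). Cyclin G1 (CCNG1) held 3195, 3342 and 3287 and 3924, 4046 and 4065 (log2 fold change 0.29, SE 0.06, adjusted p 0.00749). Both rose without overlap. SESN1 rose by 0.31, a call lost without single libraries (adjusted p up to 0.18), and the lower member was TRIM22, which is also an interferon-stimulated gene. CDKN1A, which encodes the CDK inhibitor p21, was at 29150 ± 662 and 31744 ± 1333 (log2 fold change 0.12, SE 0.06, adjusted p 0.328). MDM2 was at 6256 ± 328 and 6524 ± 84 (adjusted p 0.592). CDKN1A was called higher in the fit of the 6 libraries alone.

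A share of mitotic genes, already low in these arrested cells, fell with ruxolitinib. Of 72 tested genes of the G2 and M phases, 30 were lower (41.7%, against 3.42% of all tested genes) and none was higher. None changed 2-fold. The median was -0.35 and 71 of 72 were below 0, whereas the median of all tested genes was close to 0. CDK1, the mitotic kinase, held 341, 301 and 348 normalized counts with DMSO and 189.8, 216 and 208 with ruxolitinib (log2 fold change -0.69, SE 0.09, adjusted p 0.000169). MKI67, the proliferation antigen Ki-67, held 977, 1017 and 1038 and 726, 678 and 697 (log2 fold change -0.53, SE 0.11, adjusted p 0.00828). NCAPH, a condensin subunit, held 122, 134 and 126 and 76.4, 77.4 and 80.3 (log2 fold change -0.70, SE 0.13, adjusted p 0.00596). The groups did not overlap in these genes. With ruxolitinib they stood far under the proliferating level, by log2 differences of -3.46, -4.20 and -4.10 that include the decrease with ruxolitinib. CENPA, the centromeric histone, fell by 0.81, the kinesin KIF20A by 0.60, the kinetochore protein NDC80 by 0.60 and topoisomerase TOP2A by 0.35. LMNB1, whose loss is a marker of senescence, was at 153 ± 29.3 and 129 ± 11.7 (adjusted p 0.488). The calls of CENPA and TOP2A were lost without some single libraries, and that of KIF20A with reads drawn down to the smallest library (adjusted p 0.155). Of 58 tested S phase genes, 6 were lower (10.3%, against 3.42% of all tested genes) and none was higher, with a median of -0.17. They included RRM2, a subunit of ribonucleotide reductase (log2 fold change -0.42, SE 0.06, adjusted p 0.000176), MCM5 (-0.32) and EXO1 (-0.53). The calls of MCM5 and EXO1 were lost without some single libraries. The count of 30 was 12 to 16 when any 1 of the 6 compared libraries was left out and 49 in the setting with the most calls, and the count of 6 was 1 to 3 without a compared library and 17 in the setting with the most calls. Against palbociclib, 65 of the 72 genes were higher with ruxolitinib (90.3%, against 17.6% of all tested genes). In the same comparison 1 was lower (1.39%, against 22.8%). The balance over all genes there rests on the scaling, and the cause of the difference was not tested.

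Both chains of type I collagen and elastin rose by less than 2-fold, and most matrix genes were not called. Of 40 tested members, 6 were higher (15%, against 1.1% of all tested genes) and 2 lower (5%, against 3.42%). The other 32 were not called, and the median was 0.06. COL1A1, the main chain of type I collagen, held 166302, 167463 and 163418 normalized counts with DMSO and 232372, 232374 and 229002 with ruxolitinib (log2 fold change 0.48, SE 0.06, adjusted p 6.33e-05). COL1A2, the partner chain, held 127773, 128618 and 124221 and 160974, 165190 and 162933 (log2 fold change 0.36, SE 0.05, adjusted p 0.000749). ELN, which encodes elastin, held 104, 110.1 and 118 and 147, 182 and 168 (log2 fold change 0.57, SE 0.09, adjusted p 0.00093). All 3 genes rose without overlap and remained under the proliferating level, by -0.79, -0.47 and -2.93, the first 2 of which were not called under quantile normalization. COL3A1, SPARC and the collagen crosslinker LOXL2 rose by 0.21, 0.20 and 0.19, and the proteoglycan LUM and smooth muscle actin ACTG2 fell by 0.18 and 0.26, 5 calls each lost without some single libraries. Under quantile normalization the change in COL1A2 was 0 by construction, since it held the same rank among all genes in each of the 6 compared libraries. ACTA2, the actin of myofibroblasts, was at 5076 ± 263 and 4419 ± 59.9 (adjusted p 0.0785).

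Outside the interferon and JAK lists, the steepest well-expressed decrease was in SLC15A3, a lysosomal transporter of histidine and peptides that is known as interferon-inducible. It held 229.6, 181 and 223 normalized counts with DMSO and 32.4, 19.8 and 30.7 with ruxolitinib (log2 fold change -2.91, SE 0.22, adjusted p 2.51e-07). Its ruxolitinib libraries lay under all DMSO and all proliferating libraries, the latter at 72.6, 64.3 and 73.3. REC8, a cohesin subunit of meiosis, held 158, 144 and 126 and 51.7, 66.6 and 57.7 (log2 fold change -1.27, SE 0.21, adjusted p 0.00174). TYMP, thymidine phosphorylase, which is also known as interferon-inducible, held 193, 159 and 169 and 75.6, 71.1 and 70.4 (log2 fold change -1.25, SE 0.16, adjusted p 0.000165). PLEKHA4, a phosphoinositide-binding protein, held 580.0, 554 and 501 and 257, 250.3 and 257 (log2 fold change -1.09, SE 0.10, adjusted p 3.71e-06). The groups did not overlap in any of the 3. AGT, the precursor of angiotensin and an acute-phase gene in liver, was lower in level, with 77.2, 125 and 85.6 and 26.2, 27 and 26.2 (log2 fold change -1.79, SE 0.22, adjusted p 9.80e-05). The muscle filament DES and the prostaglandin transporter SLCO2A1 changed by -1.12 and -1.04, and SLCO2A1 lost its call without A116, A117, A122 or A123. FRG1 held 56.4, 41.4 and 45.1 and 0, 1.8 and 4.51 (log2 fold change -4.28, SE 0.94, adjusted p 0.0151). It has close copies in the genome, its palbociclib libraries held 3.32, 4.38 and 64.8, and its call was lost without any 1 of A116, A117, A118, A122 and A123.

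The remaining decreases named by rank were shallower. They comprised THEMIS2, a signalling adaptor of leukocytes (-0.98), the neighbouring membrane proteins TMEM176A and TMEM176B (-0.95 and -0.87), CRYBG1 (-0.87), the glycoprotein-binding ligase subunit FBXO6 (-0.86), STRIP2 (-0.85), the butyrophilin BTN3A2 (-0.78) and the mucin MUC1 (-0.75), beside NNMT, CEBPD and ATF3. TMEM176A held 169, 168 and 164 and 85.6, 81 and 91.1 normalized counts, under the proliferating 196, 219.6 and 210.4. TMEM176A and TMEM176B overlap in the genome and BTN3A2 has near copies, so their counts may share reads. FBXO6 lost its call without library A117 (adjusted p 0.0506). In THEMIS2 and STRIP2 the palbociclib level did not differ from that with ruxolitinib by the same test (adjusted p 0.522 and 0.85), whereas NNMT held 848, 1106 and 895 with palbociclib, above every DMSO library.

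Increases other than TNFRSF10D stayed under 2-fold among genes with at least 100 normalized counts in the higher group. The aconitase and iron regulatory protein ACO1 held 3115, 3184 and 3387 normalized counts with DMSO and 4540, 4595 and 4641 with ruxolitinib (log2 fold change 0.51, SE 0.05, adjusted p 3.71e-06). GNL3L, a nucleolar GTPase, held 845, 741 and 690.3 and 1113, 1081 and 1071 (log2 fold change 0.52, SE 0.09, adjusted p 0.00162). ALDH6A1, a mitochondrial dehydrogenase of valine breakdown, held 206, 193 and 171 and 279, 301 and 245 (log2 fold change 0.53, SE 0.10, adjusted p 0.00531). Each gene rose without overlap, and these calls and those of SLC35E2A (0.67), ELN, COL1A1 and TNFRSF10D held in every setting tried. SLC35E2A has a near copy, so it is uncertain. IGFBP2, which binds insulin-like growth factors, held 119.8, 154 and 157 and 226, 221 and 240.0 (log2 fold change 0.68, SE 0.15, adjusted p 0.0133), a call lost without A116, A122 or A124. The mitochondrial glycine tRNA TRNG (0.68), the integrin ITGB8 (0.64), C22orf23 (0.56), the lens filament BFSP1 (0.53), the G protein regulator RGS5 (0.53) and the membrane protein PALM (0.46) rose with calls that were lost without some single libraries. GNAT2, a transducin of cone cells, was low, with 32.7, 20.1 and 40.5 and 69.4, 52.2 and 63.2 (log2 fold change 1.01, SE 0.25, adjusted p 0.0318), and its call was lost without A116 or A117 or any ruxolitinib library.

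**Figure D5:**
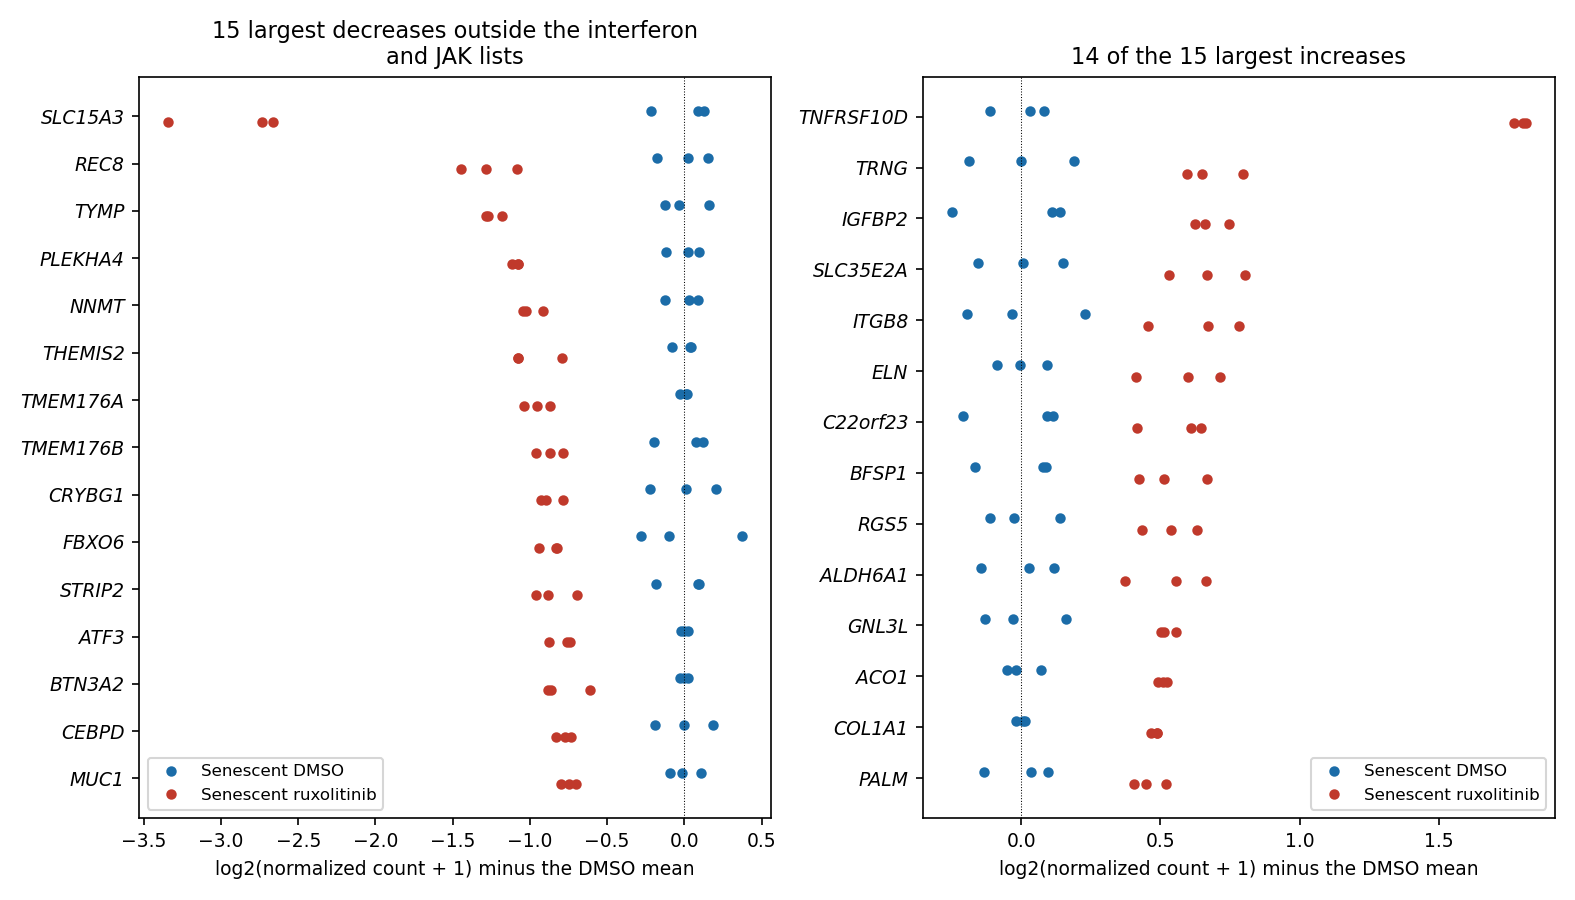
Log2(normalized count + 1) of the 6 compared libraries, each minus the gene's DMSO mean, for the 15 largest decreases outside the interferon and JAK lists (left) and 14 of the 15 largest increases (right) among called genes with at least 100 normalized counts in the higher group. Blue points are DMSO and red points ruxolitinib libraries; the colours do not overlap in any row, and only SLC15A3 and TNFRSF10D stand well away from the other genes of their panel.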

How the data were processed

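The members and gene lists were chosen with earlier results of these data known. The deposited table of the whole series holds 1 column per library, 12 in all, of normalized gene counts (a signal per gene, made by the authors as read counts divided by 1 factor per library, per the file headers and values). Per the submitters' processing notes, Trimmomatic 0.38.1, HISAT2 2.2.1, featureCounts 2.0.3, FastQC 0.74, MultiQC and DESeq2 2.11.40.8 were used with hg38, with no order given. The annotation and the treatment of reads that match several genes are not given in the sources used here. All 160380 values above 0 were whole multiples (within 0.01) of what 1 read is worth in their column, so reads were recovered, 14106799 to 21762412 per library. Every pair of libraries of a group differed by more than the counting error of these reads. Genes are ordered by Entrez number up to 140467, and 4796 of 20056 protein-coding RefSeq genes (23.9%) lie beyond it and were not analysed here. No column of values was set aside (0 unused).

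Values were tested as log2(normalized count + 1) for the 11242 genes with a mean of at least 10 (limma 3.58.1 in R 4.3.3, group means of all 12 libraries, eBayes with trend, two-sided, Benjamini-Hochberg, called at an adjusted p under 0.05). Adjusted p-values are limma's unless another tool is named, ± is the SD over 3 libraries, and SE is the standard error of a log2 fold change. Genes were named as 4 given markers (OAS1, MX1, SOCS3, TNFRSF10D), the 12 largest decreases on the interferon and JAK lists, the 15 largest other decreases and the 15 largest increases (called, with a symbol, no overlap and 100 or more normalized counts on average on the higher side), plus list members as examples; a few genes that these choices name are not reported here. Genes lower or higher at least 2-fold with lower means were named after their values were seen. Alternatives were pseudocounts, filters, scalings, groups in the fit, weights, each library left out, edgeR 4.0.16 and DESeq2 1.42.0 on the recovered reads. Added after seeing the data were counts of the antiviral list under each scaling, fits without A119, A120 and A126, edgeR on the 6 compared libraries and reads drawn down to the smallest library. The steps were tested on simulated data. Promoter letters and gene positions come from RefSeq (GRCh38.p14), whose promoter table held 9163 of the 11242 tested genes.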

Additional observations from a re-analysis of the deposited data

How the results depend on the processing

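No paired analysis was possible because the column names carry numbers that match no replicate number of the labels. Of 171 genes named, 139 were called; 94 kept the call in all 27 settings tried, 45 lost it in at least 1, and none of the called genes changed direction. Of the 32 not called, 13 were called in some setting. The 3 that changed sign, all close to 0, were JAK1 (-0.022 at the same total, -0.014 under quantile normalization, -0.037 to 0.030 with 1 library left out), JAK2 (-0.078 to 0.032 with 1 library left out) and SOCS1 (-0.040 with reads drawn down, -0.026 to 0.22 with 1 library left out). Against DMSO, 384 genes were lower, and 998 in the fit of the 2 groups, 847 with a weight per group, 969 by edgeR on the 2 groups, 924 without A119, A120 and A126, 212 at an adjusted p under 0.01 and 220 to 489 with 1 library left out. The 124 higher genes became 843, 587, 876, 742, 34 and 38 to 238 in the same order, 191 under quantile normalization and 199 by DESeq2. The 2 genes higher at least 2-fold became 1 with a pseudocount of 5, a mean of at least 50, the same total or an adjusted p under 0.01, and 9 without a filter, under quantile normalization, in the fit of the 2 groups and by edgeR on them, with 7 for a weight per group, 8 without A119, A120 and A126 and 1 to 4 with 1 library left out. The 73 genes lower at least 2-fold ran from 59 to 90 over all settings. The share of higher genes among calls, 24.4%, was 15.6% at the same total, 30.8% at the same upper quartile and 32.8% under quantile normalization. Against palbociclib, the same total gave 4535 higher and 847 lower, and against proliferating cells 5050 and 3136. Fits with fewer libraries have fewer degrees of freedom, and the proliferating and palbociclib groups had a wider spread (1.15 times the pooled one for both) than DMSO (0.882) and ruxolitinib (0.768). The cause of the shifts between settings was not tested. Genes under 10 normalized counts, among them IRF7 and IFNB1, and genes listed near 0 are outside what this depth and table can show.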

Other observations

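Genes of cytosolic ribosomal proteins were looked at as a group chosen after its values were seen. Of 93 tested, 14 were called higher (15.1%, against 1.1% of all tested genes) and 1 lower (1.08%, against 3.42%). The median log2 fold change was 0.18, with 84 above 0. RPL27A held 5463, 5383 and 5491 normalized counts with DMSO and 6908, 6996 and 7341 with ruxolitinib (log2 fold change 0.38, SE 0.07, adjusted p 0.00396). RPS23 held 3867, 4184 and 4012 and 5127, 5025 and 5155 (log2 fold change 0.34, SE 0.07, adjusted p 0.0139), and its call was lost without A116, A118, A122 or A124 and in a fit with no trend of the spread with level. Both genes remained under the proliferating level, by -0.34 and -0.51, the first a call lost with library totals set equal (adjusted p 0.102 for RPL27A). Ribosomal protein genes have many processed copies in the genome, and their counts may share reads.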
